A study of Mus musculus with 2 samples.

Results

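The regions described here are the 101 very wide entries of a table of H3K9me2 signal in mouse embryonic stem (ES) cells, chosen as all regions on chromosomes 1 to 19 with an end minus start of at least 2500 bp. They were 101 of 23339 autosomal regions and of 23946 regions in the whole table. The other 23238 autosomal regions served as the comparison. The choice used width and chromosome only, and no H3K9me2 value. A single region of this width lay on chromosome X and was not a member.

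The series compared H3K9me2 between sorted populations of MC1-ZE7 ES cells of the MC1 (129S6/SvEvTac) line, cultured without feeder cells in medium with serum and leukemia inhibitory factor. The Emerald-negative group was 1 library and the Emerald-positive group, from the high fraction of Emerald fluorescence, was 1 library. The series describes these populations as Zscan4 negative and positive, and both derive from the same line, so neither is a line without the reporter. Each group being a single library, differences between the groups have no replicate check, and none is given a p-value. Intervals below are 95% intervals for counting error alone. Variation between regions, cultures, sorts or precipitations is not in them, and without molecular identifiers several reads can stem from 1 molecule.

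H3K9me2 is dimethylation of lysine 9 on histone H3. In mammalian cells it is laid down mainly by the G9a and GLP methyltransferases, it covers broad silent domains of euchromatin and the nuclear periphery, and it is low at active promoters and enhancers. Zscan4 genes encode zinc finger proteins that ES cells express in short bursts. The sources used here do not say what the regions of the table were called from, and whether their width is related to H3K9me2 by the way they were called is not known. The table carries no gene names and the gene table at hand is of another build (GRCm38), and positions are therefore those of mm9 as the table lists them.

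The wide regions had a median width of 2815 bp, with quartiles of 2630 and 3328 bp. The other regions had a median of 1106 bp and ended at 2488 bp. Of the members, 62 were 2500 to under 3000 bp wide, 35 were 3000 to under 4000 bp wide and 4 were at least 4000 bp wide. The widest, on chromosome 14 (chr14:99708247-99715324), spanned 7077 bp and stood well apart from the next, on chromosome 8 (chr8:26308241-26313009), at 4768 bp. The next widest lay on chromosome 9 (chr9:7794580-7799169), at 4589 bp, and on chromosome 13 (chr13:100272625-100276644), at 4019 bp.

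Signal was deposited for each library in 50 bins of 200 bp over a 10 kb window, and dividing by the smallest step of each library recovered whole reads. The point on which windows are centred is not stated, so it was taken from overlapping windows, which must hold the same reads at the same genome position. For 304 pairs of autosomal regions whose midpoints lay a whole number of bins apart within 5 bp, 2130 of 2208 bins with reads held equal reads (96.5%). The same comparison gave 22.7% equal bins when windows were placed by region start and 27.2% when placed by region end. Windows were thus centred on region midpoints and ran by genome coordinate, and each bin could be placed inside or outside its region. No member lay within 10 kb of another, so no read was counted in more than 1 member.

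H3K9me2 was lower around the wide regions than around the other regions in both libraries, with strongly overlapping ranges. Wide regions had a median of 5 reads per window (quartiles 3 and 8, range 0 to 25) in the Emerald-positive library, against a median of 7 reads (quartiles 4 and 12, range 0 to 746) for the others. In the Emerald-negative library the median was 6 reads (quartiles 4 and 11, range 0 to 30) against 9 reads (quartiles 5 and 15, range 0 to 966). In all, 65 of 101 wide regions in the Emerald-positive library and 72 of 101 in the Emerald-negative library lay below the median of the others. As no input library was used, less H3K9me2 and a poorer recovery of reads at these positions cannot be told apart.

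In total the wide windows held 644 Emerald-positive and 773 Emerald-negative reads. In the authors' scaling this was a mean signal per window of 7.15 (interval 6.61 to 7.72) in Emerald-positive cells and 6.91 (6.43 to 7.41) in Emerald-negative cells. The other regions averaged 10.4 and 10.3. Mean reads of the wide regions were thus 0.688 (0.636 to 0.743) and 0.670 (0.624 to 0.719) of those of the others. Of the 23238 others, 125 had over 100 reads in both libraries together, as had 0 of the 101 members. With so rare a class, the 0 is not read as a trait of the members. Against the others with at most 100 reads the shares were 0.739 (0.683 to 0.798) and 0.722 (0.672 to 0.775).

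Sparsely read windows made up more of the members than of the others. Of the 101, 41 had under 10 reads over both libraries, 38 had 10 to 19, 17 had 20 to 39 and 5 had at least 40. Under 10 reads were found for 40.6% of the wide and 27.0% of the other regions, and at least 40 reads for 4.95% and 9.39%. The 4.95% rests on 5 members, and these shares were not tested. The most-read member had 49 reads and the most-read other region 1712. These are the largest of 101 and of 23238 regions, so they are not compared. The variance of reads over the members was 4.15 times the mean in the Emerald-positive and 4.74 times in the Emerald-negative library, where counting alone gives 1, so the members differed among themselves beyond counting error.

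The 5 members with the most reads were read at similar levels in the 2 libraries, apart from the one on chromosome 6. On chromosome 8, a region of 3094 bp (chr8:40179252-40182346) had 25 Emerald-positive and 24 Emerald-negative reads, of which 17 and 15 fell on the side of lower coordinates and 6 and 6 on the other side. A region on chromosome 18 (chr18:40442328-40445284) had 22 and 23 reads, and one on chromosome 5 (chr5:29457212-29459819) had 24 and 21. Another on chromosome 8 (chr8:5439617-5442793) had 19 and 26 reads, again mostly on the side of lower coordinates, with 11 and 17 reads there against 5 and 5. The region on chromosome 6 (chr6:135629627-135632908) had 13 and 30 reads, a scaled ratio of 0.538 whose interval (0.258 to 1.06) held equality. Over all members there was no such lean: lower-coordinate flanks held 291 and higher-coordinate flanks 276 Emerald-positive reads, and 347 and 329 Emerald-negative reads.

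**Figure D1:**
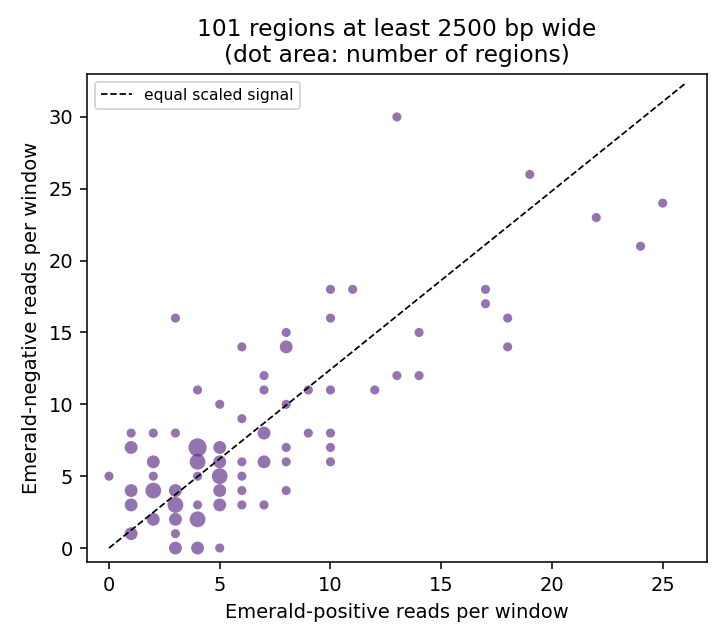
Reads per 10 kb window in the Emerald-positive library (x axis) and the Emerald-negative library (y axis) for the 101 regions at least 2500 bp wide. Dot area grows with the number of regions at the same pair of values, and the dashed line marks equal scaled signal. Most members lie under 10 reads on both axes, and the highest values are 25 and 30.

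The level of a member did not follow its own width. The median was 5 Emerald-positive and 6 Emerald-negative reads at 2500 to under 3000 bp, 4 and 6 reads at 3000 to under 4000 bp, and 5.5 and 7 reads in the 4 regions of at least 4000 bp. Across the members, the correlation of width with log2(reads + 1) over both libraries was -0.018 (Pearson) and that of width with reads 0.033 (Spearman, n = 101 regions of the same 2 libraries). The widest region had only 2 and 8 reads. Just inside the threshold, the 16 regions of 2500 to under 2600 bp had medians of 4.5 and 5.5 reads, and just outside it the 30 regions of 2400 to under 2500 bp had medians of 4 and 7 reads. The larger class of 2000 to under 2500 bp (1019 regions) had medians of 6 and 7 reads, between the members and the narrower regions of 1500 to under 2000 bp, at 7 and 8 reads.

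Signal at the wide regions was below that of the others in all 6 distance zones from the midpoint. As a share of theirs, the lowest zone of each library lay within 1000 bp. Within 400 bp of the midpoint the scaled signal per bin was 0.080 (interval 0.054 to 0.116) in the Emerald-positive library and 0.071 (0.049 to 0.101) in the Emerald-negative library, against 0.134 and 0.130 at the others. From 3400 to 5000 bp it was 0.175 (0.154 to 0.198) and 0.168 (0.149 to 0.188), against 0.228 and 0.228. The wide regions thus had 0.6004 and 0.548 of the signal of the others at the middle and 0.768 and 0.736 of it at the window ends. Between these the share did not rise steadily. The Emerald-positive share was 0.531 at 400 to 1000 bp, 0.720 at 1600 to 2400 bp and 0.643 at 2400 to 3400 bp. The Emerald-negative share was 0.612, 0.597 and 0.699 in the same zones. These shares carry no interval. The windows end at 5000 bp from the midpoint, and how far the lower level reached was not measured.

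**Figure D2:**
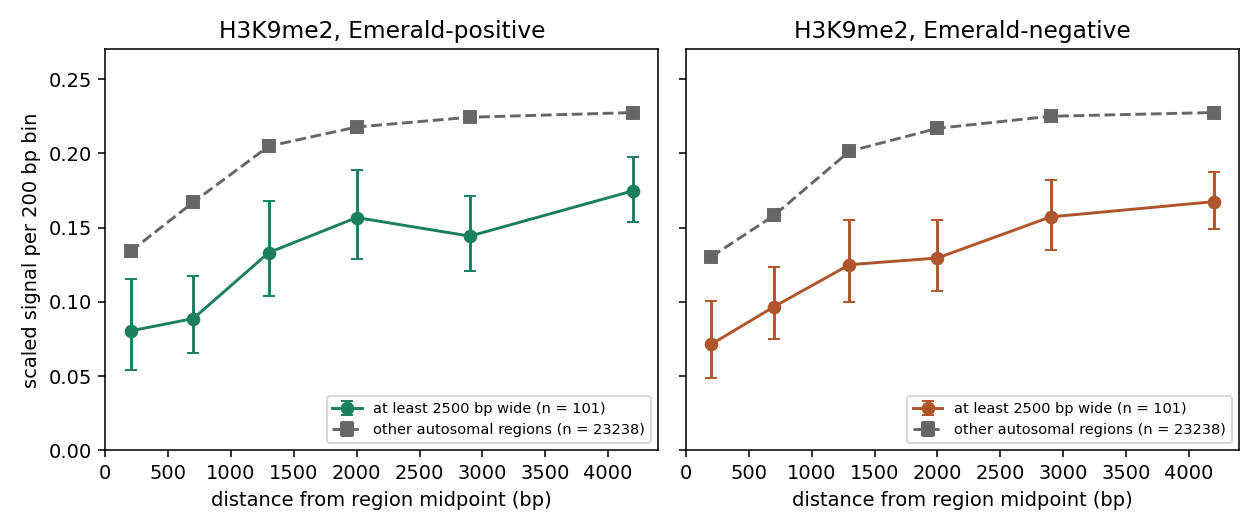
Mean scaled H3K9me2 signal per 200 bp bin (y axis) by distance from the region midpoint (x axis, bp, both sides pooled) in each library, with 95% Poisson counting intervals as bars. The wide regions (circles) lie below the other autosomal regions (squares) in all 6 distance zones, at 0.080 and 0.071 against 0.134 and 0.130 nearest the midpoint.

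H3K9me2 signal was depleted in the middle of the wide regions in both libraries. With no input library, less of the mark and a poorer recovery of reads in the middle cannot be told apart. The ratio of reads per bin within 1000 bp of the midpoint to reads per bin beyond it was 0.543 (interval 0.422 to 0.690, from 77 central and 567 flank reads) in Emerald-positive cells. In Emerald-negative cells it was 0.574 (0.459 to 0.711, from 97 and 676 reads). The other regions had 0.695 (0.687 to 0.704) and 0.666 (0.659 to 0.673). On the log2 scale the wide regions differed from the others by -0.36 (-0.70 to -0.012) in Emerald-positive and by -0.21 (-0.52 to 0.093) in Emerald-negative cells. The counting interval held 0 in Emerald-negative cells and narrowly left it out in Emerald-positive cells. Reads of the members varied beyond counting error, which these intervals leave out, so nothing is read from that narrow edge. Against regions of 2000 to under 2500 bp, with ratios of 0.584 and 0.585, the differences were -0.11 (-0.46 to 0.25) and -0.027 (-0.35 to 0.29), not detectable at this depth.

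The lower ratio of the wide regions was measured with a fixed distance of 1000 bp, which lies wholly inside a wide region and reaches past the edges of a region under 2000 bp. When bins inside each region were instead set against bins outside it, the wide regions had ratios of 0.640 (0.527 to 0.773) in the Emerald-positive library and 0.639 (0.536 to 0.759) in the Emerald-negative library. The other regions had 0.645 and 0.631. The log2 difference between wide and other regions was then -0.011 (-0.28 to 0.26) and 0.017 (-0.23 to 0.26). By that measure no difference in depletion was detectable, and the intervals still allow one of about the size seen with the fixed distance in Emerald-negative cells.

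Aligned on the region edge, the signal of the wide regions fell on the inner side and was level on the outer side. From 700 to 1200 bp inside the edge it was 0.084 (interval 0.059 to 0.115) in the Emerald-positive library and 0.086 (0.063 to 0.114) in the Emerald-negative library. From 200 to 700 bp inside it was 0.107 and 0.105, and at the edge, within 200 bp on either side, it was 0.142 and 0.114. From 200 to 700 bp outside it was 0.158 (0.123 to 0.200) and 0.155 (0.124 to 0.191), and from 2200 to 3200 bp outside it was 0.151 (0.126 to 0.179) and 0.168 (0.144 to 0.194). The intervals of all 4 outer zones overlapped one another in each library.

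The same shape was seen in the narrower classes at a higher level outside. Regions of 2000 to under 2500 bp had 0.089 and 0.086 from 700 to 1200 bp inside the edge, within the intervals of the wide regions. Their signal from 2200 to 3200 bp outside was 0.192 and 0.195, against 0.217 and 0.217 for regions of 1500 to under 2000 bp. The wide regions and the class below them were thus close inside, where all were low, and were ordered by width in the outermost zone.

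**Figure D3:**
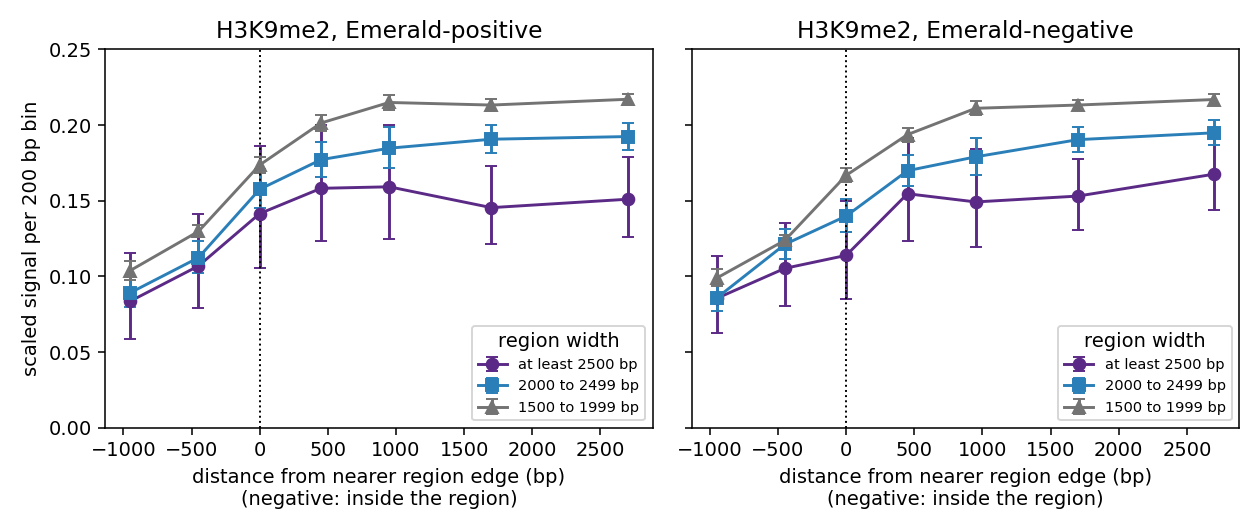
Mean scaled H3K9me2 signal per 200 bp bin (y axis) by distance of the bin from the nearer region edge (x axis, bp, negative inside the region) in each library for 3 width classes, with 95% Poisson counting intervals. In the wide regions the signal rises from 0.084 and 0.086 deep inside to 0.158 and 0.155 just outside the edge and stays near that level further out.

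Many members had no read at all within 1000 bp of the midpoint. In the Emerald-positive library 58 of 101 had no central read (57.4%, against 44.2% of the others). In the Emerald-negative library 51 had none (50.5%, against 39.8%). These shares take no account of the fewer reads of the members. In both libraries together 33 members had no central read (32.7%). Among the other regions 25.4% had no central read in either library. When the others were weighted to the same shares of regions with 0 to 6, 7 to 11, 12 to 20 and at least 21 flank reads as the members, this became 31.5%, close to the 32.7% of the members. The classes differed in direction. Of the 29 members with 0 to 6 flank reads, 18 had an empty centre (62.1%), against 46.3% of the others at that level. At 7 to 11 flank reads the shares were 33.3% and 36.8%, and at 12 to 20 they were 16.7% and 22.7%. None of the 18 members with at least 21 flank reads had an empty centre, and 6.10% of the others at that level did. These classes of members are small and their differences were not tested.

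Only 5 members had at least 40 reads. Their centre-to-flank ratios over both libraries ranged from 0.410 on chromosome 6 (chr6:135629627-135632908) and 0.455 on chromosome 8 (chr8:40179252-40182346) to 1.00 on chromosome 5 (chr5:29457212-29459819). The region on chromosome 5 had 9 central reads of 45, and the region on chromosome 6 had 4 of 43. Among the widest, the regions on chromosome 8 (chr8:26308241-26313009) and on chromosome 4 (chr4:116372668-116376641) had no central read, with 13 and 11 reads in the whole window. The fourth widest, on chromosome 13 (chr13:100272625-100276644), had 3 central reads in each library of 9 Emerald-positive and 11 Emerald-negative reads. The intervals of the 5 most-read members all held the pooled ratio of all autosomal regions, 0.679. Of the 95 members with reads in both libraries, 2 had a centre-to-flank ratio whose exact counting interval lay above that ratio, or 2.11%, where the background was 4.73%. They lay on chromosome 18 (chr18:46514919-46518467), with 11 central reads of 35 and a ratio of 1.83 (0.811 to 3.89), and on chromosome 8 (chr8:114304977-114307802), with 7 of 15 and a ratio of 3.50 (interval from 1.08 upward). None of the 95 lay below that ratio, where the background was 1.85%. For the 41 members with under 10 reads and the 38 with 10 to 19, even an empty centre could not place the interval below it. Both backgrounds also include regions with far more reads, up to 1712, so nothing is read from these counts.

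Between the populations, no difference in scaled H3K9me2 was detectable at the wide regions. The pooled ratio of Emerald-positive to Emerald-negative signal was 1.035-fold (interval 0.931 to 1.15), and that of the other regions was 1.009-fold (1.003 to 1.014). Of the 101 members, 95 had a read in both libraries and entered the ratios per region, which used log2((signal + 0.036)/(signal + 0.036)) of the Emerald-positive over the Emerald-negative mean signal per bin. Their median log2 ratio was 0.099, with quartiles of -0.40 and 0.43, beside a median of 0.0097 and quartiles of -0.39 and 0.42 over the other regions. Of the 95, 52 lay above 0 and 43 below.

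With the pseudocount, which shrinks ratios of few reads, few members differed by 2-fold or more. The Emerald-positive signal exceeded the Emerald-negative by 2-fold or more at 1 of 95 members (1.05%), where the background over all 22674 autosomal regions tested was 5.39%. It was lower by 2-fold or more at 5 of 95 (5.26%), where the background was 5.46%. The share on the lower side was near the background. The share on the higher side rested on a single region and moved to 4.21% with a pseudocount at the 1st percentile (background 7.52%) and to 10.7% in the outer bins (background 9.81%), so nothing is read from it. Without a pseudocount, scaled ratios of at least 2 were found at 10 of 95 members (10.5%, background 10.8%) and of at most 0.5 at 14 (14.7%, background 11.3%). These shares too were near the background.

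The region higher by at least 2-fold lay on chromosome 11 (chr11:117545726-117548347), with 7 Emerald-positive and 3 Emerald-negative reads, a ratio of 2.90 (0.662 to 17.4). Among the 5 lower, the region on chromosome 8 (chr8:9975704-9978653) had 3 reads against 16 and a scaled ratio of 0.233 (0.043 to 0.814). Of the 95 members with reads in both libraries, it was the only one whose counting interval lay off the ratio common to all autosomal regions: 1 of 95 lay below it, where the background was 1.39%, and 0 of 95 lay above it, where the background was 1.72%. The widest region of all, on chromosome 14 (chr14:99708247-99715324), had 2 reads against 8 and a scaled ratio of 0.311 (0.032 to 1.56). The remaining regions lay on chromosomes 2, 4 and 7 with 1 read against 7 or 8, and their intervals held equality.

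Among the 50 members above the median signal of the members, the highest ratio, on chromosome 11 (chr11:79989647-79992314), was 8 reads against 4, or 2.48-fold (0.666 to 11.3). It was followed by a region on chromosome 2 (chr2:75613414-75616294) with 10 reads against 6, or 2.07-fold (0.682 to 6.93). Without the pseudocount both ratios exceed 2, and with it they stood at 0.99 and 0.85 on the log2 scale, under the threshold. The next, on chromosomes 12, 5 and 8, had ratios of 1.77, 1.60 and 1.66. After the region on chromosome 8 at 3 reads against 16, the lowest were on chromosome 8 (chr8:114304977-114307802), with 4 reads against 11 or 0.452 (0.105 to 1.52), and the region on chromosome 6 described above. A region on chromosome 16 (chr16:59543449-59546177) had 6 reads against 14, or 0.532 (0.168 to 1.48), and one on chromosome 7 (chr7:140267777-140270640) had 5 against 10, or 0.621 (0.167 to 1.99).

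In 6 members 1 library had no read, and a count of 0 allows up to 3 reads there. The Emerald-negative library had none at 5 of them, on chromosomes 5, 8, 9, 17 and 19, where the Emerald-positive library had 3 to 5 reads. The Emerald-positive library had none at 1, on chromosome 18 (chr18:68458715-68461281), where the Emerald-negative library had 5. Windows without an Emerald-negative read made up 4.95% of the members and 1.08% of the other regions. Windows without an Emerald-positive read made up 0.990% and 1.87%. The counts of members are small, the members had fewer reads per window, and the shares were not tested. Of these 6, only the region on chromosome 9 (chr9:45820071-45822752), with 5 Emerald-positive reads against 0, had a counting interval that left out equality, with a scaled ratio of 1.14 or more. The intervals of the other 5 held equality. How often such an interval left out equality among all autosomal regions with an empty library was not counted.

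The libraries ranked the members alike. Across the 101 members the correlation of log2(reads + 1) between the libraries was 0.603 (Pearson) and that of reads 0.665 (Spearman), beside 0.744 and 0.766 over the other regions, which span a wider range of reads. These are correlations across regions of the same 2 libraries, not across replicates. The central depletion was also alike, with a log2 ratio of the Emerald-positive to the Emerald-negative centre-to-flank ratio of -0.079 (-0.54 to 0.38). That interval held both 0 and the value of the other regions, 0.062 (0.039 to 0.085). In the 6 zones of distance from the midpoint, the log2 ratio of the members ranged from -0.12 to 0.28 and all 6 intervals held 0.

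Wide regions lay on every autosome, with the largest number on chromosome 8. Chromosome 8 held 14 of the 101 members (13.9%) and 6.76% of the other regions, so that 0.883% of its regions were wide. Chromosome 14 held 7 members (6.93%, against 3.86% of the others) and chromosome 18 held 5 (4.95%, against 3.02%). Chromosome 3 held 1 member, or 0.990%, against 5.22% of the others, and chromosome 11 held 5 (4.95%), against 7.70%. These counts are small and were not tested.

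**Figure D4:**
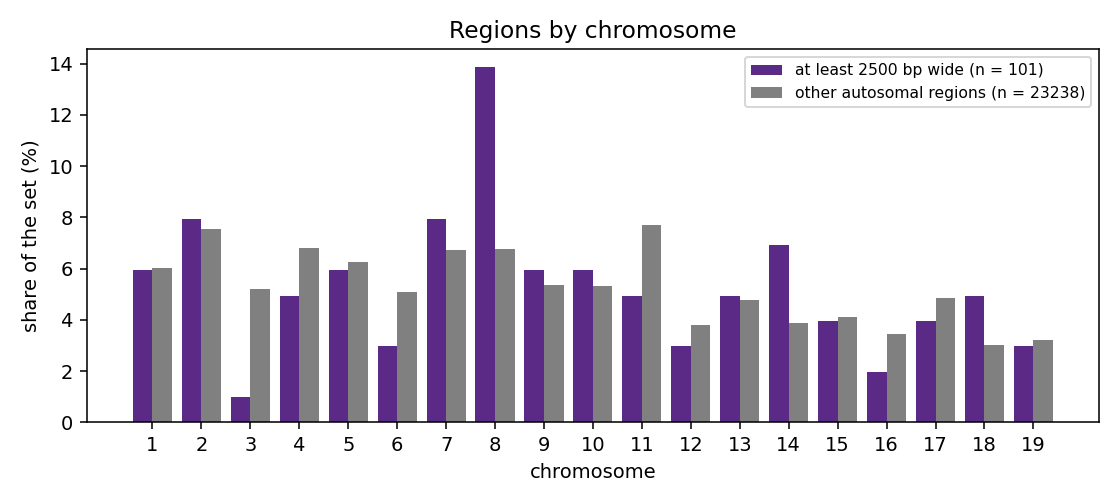
Share of the 101 wide regions (dark bars) and of the 23238 other autosomal regions (grey bars) on each chromosome, in percent of each set (y axis). Chromosome 8 holds 13.9% of the wide and 6.76% of the other regions, and chromosome 3 holds 0.990% and 5.22%.

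The members on chromosome 8 had medians of 6.5 Emerald-positive and 8 Emerald-negative reads, against 5 and 6 for the 87 members elsewhere. The other regions of chromosome 8 had medians of 10 and 12 reads, so the wide regions were below their own chromosome there as well. Their centre-to-flank ratios, 0.696 (0.382 to 1.19) and 0.700 (0.418 to 1.12), had intervals that held the values of the members elsewhere, 0.514 and 0.547. Within chromosome 8 the 2 most-read members were both among the first 5 by position, at 5.44 and 40.2 Mb, and the 9 from 86.5 Mb onward had 3 to 9 Emerald-positive and 0 to 12 Emerald-negative reads.

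Along the chromosomes the wide regions were spread as the others were. Mouse autosomes have their centromere at the end where coordinates begin. Measured from there and relative to the last region of the chromosome, the median position was 0.531 (quartiles 0.221 and 0.780) for the members and 0.555 (0.269 and 0.800) for the others. With that length divided into 10 equal parts, the members counted from 7 in part 5 to 15 in part 2, which was 14.9% of them, against 10.8% of the others. The last part held 13 members (12.9%, against 12.2%). Their reads showed no steady trend along this length, with medians of 3 to 7 Emerald-positive reads and 5 to 13 Emerald-negative reads per part, the highest Emerald-negative value in part 1.

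Members mostly lay megabases from each other. With only 101 regions over 19 autosomes, and no set of equal size drawn from the others, this is not read as a trait of theirs. The median distance to the nearest other member was 7.41 Mb, over the 100 that shared a chromosome with another. Only 4 pairs were under 1 Mb apart. The closest lay on chromosome 2 (chr2:169978147-169981188 and chr2:170111991-170114572), 134 kb apart, with 2 and 7 Emerald-positive and 5 and 8 Emerald-negative reads. On chromosome 7 a pair (chr7:29381461-29384510 and chr7:29524459-29527653) was 143 kb apart, with 1 and 3 Emerald-positive and 7 and 2 Emerald-negative reads. The remaining pairs, on chromosomes 8 and 17, were 487 and 559 kb apart.

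Members did lie close to other regions of the table. The nearest region of any width was a median of 8812 bp away (quartiles 5325 and 20346 bp), against 11192 bp (4718 and 31683 bp) for the others. It was under 10 kb away for 54 members (53.5%, against 46.7% of the others) and over 100 kb away for 3 (2.97%, against 9.01%). Within 500 kb a member had a median of 19 other regions (quartiles 11 and 31), against 17 (10 and 26). Crowded positions, with at least 30 regions within 500 kb, held 27 members (26.7%, against 18.3%). A flank bin lay in another region for 27.7% of the members and 29.2% of the others. Distances run between midpoints, and these differences were not tested.

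H3K9me2 at the wide regions was higher where regions were sparse. The 21 members with fewer than 10 other regions within 500 kb had medians of 8 Emerald-positive and 14 Emerald-negative reads, with ranges of 2 to 25 and 0 to 30. The 27 members with at least 30 had medians of 4 and 4 reads, with ranges of 1 to 8 and 0 to 12, so the lower parts of the ranges overlapped. Across the members the correlation of reads over both libraries with the number of regions within 500 kb was -0.536 (Pearson, both as log2 of the value plus 1) and -0.497 (Spearman). The other regions had -0.388 and -0.416. These values describe 101 and 23238 regions of the same libraries and carry no test.

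**Figure D5:**
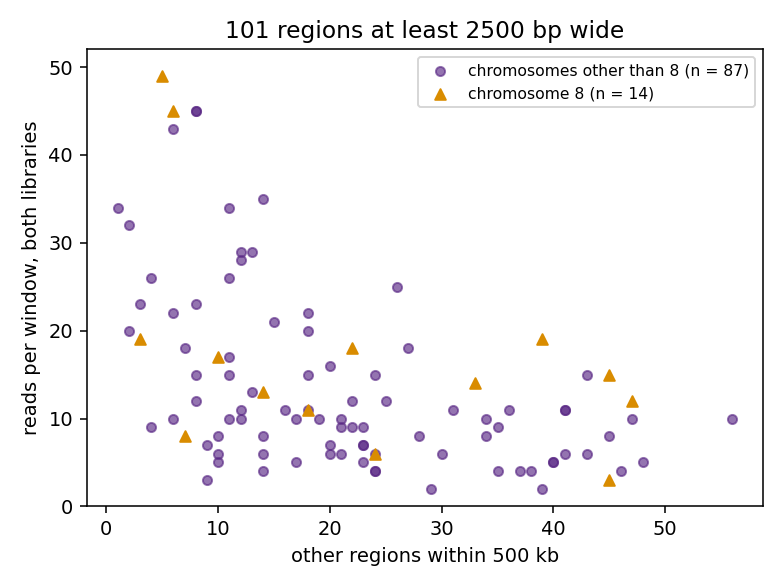
Reads per window over both libraries (y axis) against the number of other regions within 500 kb (x axis) for the 101 wide regions, with the 14 on chromosome 8 as triangles. All members with at least 40 reads have fewer than 10 regions within 500 kb, and no member with at least 30 such regions exceeds 19 reads.

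The lower level of the wide regions was also seen against their own surroundings. Each member was compared with the mean reads of the narrower regions between 10 and 500 kb away, where at least 3 existed, which left 98 members. The member was below that mean in 68 of 98 cases (69.4%) in the Emerald-positive library and 70 of 98 (71.4%) in the Emerald-negative library. For the other regions, whose reads are skewed, the same shares were 56.7% and 56.9%. Summed over members, reads were 0.767 and 0.757 of the surrounding mean, against 1.009 and 1.009 for the others. When the others were weighted to the members' shares of the 4 classes of local density, mean reads of the wide regions were 0.724 and 0.705 of theirs. Without weighting the shares were 0.688 and 0.670. These weighted shares carry no interval, and whether crowding contributes to the lower level was not tested. They are shares of means, which include the most-read others, and the class medians differed unevenly. With fewer than 10 regions within 500 kb, medians were 8 and 14 reads for members and 11 and 14 for the others. At 10 to 19 they were 5.5 and 7 against 8 and 9, and at 20 to 29, 4 and 4 against 6 and 7. At 30 or more they were 4 and 4 against 4 and 5.

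In the order of the deposited table, which no source used here explains, wide regions came early. With the table divided into 4 equal parts, part 1 held 35 members (34.7%) and part 4 held 11 (10.9%), where the other regions were spread evenly, at 24.9% and 25.3%. Members in part 1 had a median width of 3011 bp and the shallowest central depletion, with a centre-to-flank ratio over both libraries of 0.712 (0.560 to 0.896). In part 3 it was 0.339 (0.214 to 0.515). The other regions had ratios of 0.777 and 0.636 in the same parts, so part 1 was the shallowest among both.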

How the data were processed

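H3K9me2 was measured by chromatin immunoprecipitation (antibody ab1220) and sequencing in 1 library of each population. Per the labels' protocols, fragments of 200 to 300 bp were selected, or 200 to 500 bp in a second experiment, and the labels tie the libraries to neither. The deposited values are a signal per 200 bp bin, scaled by the authors by 1 constant per library, so a change by 1 factor everywhere would not appear. The build is mm9, per the submitters' processing notes. All values above 0 (100%) were whole multiples of 1.12 (Emerald-positive) and 0.902 (Emerald-negative) within 0.02, which gave 219416 and 270338 reads over all windows.

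Ratios of reads carry exact conditional binomial intervals, levels exact Poisson intervals, and differences of centre-to-flank ratios a normal approximation on the log scale. The binomial intervals and the normal approximation were tried on simulated reads, and the Poisson intervals were not. For centre-to-flank ratios all members were simulated with the same mean reads, whereas the real members differed beyond counting error. The pseudocount was the 5th percentile of nonzero region means. Members and lists were chosen with earlier results of these data known. Regions were named by rule: the 10 widest, the 5 most read, the 5 highest and 5 lowest ratios above the members' median signal, and the extremes of centre-to-flank ratio with at least 40 reads. Regions past 2-fold, with an empty library, with a single profile off the pooled one or in pairs under 1 Mb apart were named after their values were seen, and the comparisons with neighbours, by density, by region edge and of single profiles were chosen then too. Calculations ran in Python 3.11.15 with scipy 1.17.1, numpy 2.4.6 and pandas 2.3.3, and figures were drawn with matplotlib 3.10.9.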

Additional observations from a re-analysis of the deposited data

How the results depend on the processing

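The median log2 ratio of the wide regions, 0.099, ranged from -0.13 to 0.15 over 13 alternatives, so its sign depended on the setting. The share at least 2-fold higher, 1.05%, was 0% when the pseudocount was the 25th percentile (1.62% over all autosomal regions at that setting) and at widths of at least 3000 bp (0 of 39, 5.39%). It was 5.94% with no filter (5.95%), 10.7% in the outer bins (9.81%), 5.89% at widths of at least 2000 bp (5.39%) and 10.5% with no pseudocount (10.8%). The share at least 2-fold lower, 5.26%, was 13.1% in the outer bins (10.5%) and 14.7% with no pseudocount (11.3%). In the outer bins fewer reads enter each ratio. The centre-to-flank ratios ranged from 0.497 to 0.681 in Emerald-positive and from 0.473 to 0.667 in Emerald-negative cells over 12 alternatives, all below 1 and within their intervals. The log2 ratio between them ranged from -0.12 to 0.11. Median reads of the wide regions relative to the others were 0.714 and 0.667 and ranged from 0.571 to 0.857 and from 0.667 to 0.800 over 8 alternatives. The Emerald-negative share was 0.800 in the outer bins, which leave out the bins in and next to the region. Leaving out regions of 40 reads or more, flank bins in other regions, or the pseudocount was added after seeing the data. No paired analysis was possible because there was a single library of each kind, which also left no library to leave out. Depth limits what single members can show: 41 had under 10 reads and 38 had 10 to 19.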
